A study of Homo sapiens with 36 samples.

Results

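The genes described here were the 244 expressed members of the ZNF series. They were chosen by name (ZNF, a number and at most 1 letter) and by a mean of at least 5 CPM (a count scaled to a fixed library depth) over the 6 DMSO libraries. The table held 29744 genes, of which 529 bore such a name, and 285 of these lay below the threshold. All 244 passed the count filter of the tests, none was at 0 in any of 36 libraries, and 240 were annotated as protein-coding. Since DMSO levels chose the genes, a ZNF gene that was low in untreated cells and rose with a compound could not be among them. Because DMSO levels chose the genes, the compounds were compared with TRAP-1-NegB, whose libraries took no part in the choice, and not with DMSO. This does not bring back the genes left out, so the balance of rises and falls can still depend on the threshold. Just inside the threshold lay ZNF528 (5.08 CPM), ZNF431 (5.01) and ZNF426 (5.01), and just outside it ZNF813, ZNF586 and ZNF559, each at 4.96 CPM.

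The cells were BxPC-3, an established line from a human pancreatic adenocarcinoma whose genotype is labelled WT. They received either the vehicle DMSO or 3 µM of a compound (JQ1, MS78, TRAP1 or its relatives by name, TRAP-1-NegP and TRAP-1-NegB) for 2 or 4 h, which gave 12 groups of 3 libraries. TRAP1 is here a compound, also written TRAP-1, and not the gene of that name. JQ1 is a small molecule that blocks proteins which read acetylated histones. No label explains the endings NegB and NegP or the target of MS78, and the labels do not say that replicates were separate cultures, so p-values may measure technical spread only. RNA of 1 line at a single dose was measured.

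C2H2 zinc finger proteins bind DNA through tandem fingers, each of which holds a zinc ion and reads a few bases. Many of them carry a KRAB box, which recruits the corepressor TRIM28 and, through it, the histone methyltransferase SETDB1, and KRAB zinc finger proteins silence transposable elements. Their genes arose by repeated duplication and lie in large arrays on chromosome 19, where neighbours share much of their sequence. Of the 244 genes, 93 (38.1%) lay on chromosome 19, 22 on chromosome 16 and 18 on chromosome 7 (GENCODE v29, GRCh38). A KRAB match was found in the proteins of 120 and a SCAN match in those of 16. The median protein held 9 matches to the C2H2 pattern, ZNF462 held the most with 33, and 12 genes held none. Transcript GC content ran from 33.8% to 71.1%, with a median of 46.2% against 49.6% for all genes tested.

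Promoters are shown for 4 pairs of genes on which the results turn. ZNF761 and ZNF468 stand for the chromosome 19 array whose genes were higher at 4 h, and ZNF549 and ZNF776 for the one whose genes were lower at 2 h. ZNF431 and ZNF92 lie on different chromosomes, and ZNF792 and ZNF689 were among the genes that fell most. Each run holds the 250 bases before the start, 5′ to 3′ on the gene's strand, from RefSeq on GRCh38.p14. Capitals mark matches, on either strand, to the TATA box (TATAAA), the box bound by NF-Y (CCAAT), the GC box (GGGCGG) or an ETS-type core (CCGGAAG); the E-box CACGTG and the NRF1 palindrome were also searched and do not occur in these 8 runs. The runs lie at chr19:53431734-53431983 (ZNF761, plus strand), chr19:52857620-52857869 (ZNF468, minus), chr19:57527106-57527355 (ZNF549, plus), chr19:57746565-57746814 (ZNF776, plus), chr19:21141790-21142039 (ZNF431, plus), chr7:65373605-65373854 (ZNF92, plus), chr19:34964230-34964479 (ZNF792, minus) and chr16:30610434-30610683 (ZNF689, minus).
ZNF761: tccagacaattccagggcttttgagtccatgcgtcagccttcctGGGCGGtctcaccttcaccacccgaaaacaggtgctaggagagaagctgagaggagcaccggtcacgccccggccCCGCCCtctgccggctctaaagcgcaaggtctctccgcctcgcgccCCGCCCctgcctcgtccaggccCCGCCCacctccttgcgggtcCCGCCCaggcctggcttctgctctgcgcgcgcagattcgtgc
ZNF468: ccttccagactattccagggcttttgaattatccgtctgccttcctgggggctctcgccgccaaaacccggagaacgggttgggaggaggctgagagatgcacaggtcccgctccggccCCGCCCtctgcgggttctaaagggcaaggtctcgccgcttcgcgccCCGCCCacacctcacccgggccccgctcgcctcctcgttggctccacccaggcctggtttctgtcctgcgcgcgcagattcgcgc
ZNF549: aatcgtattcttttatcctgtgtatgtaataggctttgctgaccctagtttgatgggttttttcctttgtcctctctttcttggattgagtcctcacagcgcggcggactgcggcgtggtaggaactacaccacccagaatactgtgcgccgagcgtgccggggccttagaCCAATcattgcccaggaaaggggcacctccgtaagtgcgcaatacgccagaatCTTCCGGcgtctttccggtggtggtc
ZNF776: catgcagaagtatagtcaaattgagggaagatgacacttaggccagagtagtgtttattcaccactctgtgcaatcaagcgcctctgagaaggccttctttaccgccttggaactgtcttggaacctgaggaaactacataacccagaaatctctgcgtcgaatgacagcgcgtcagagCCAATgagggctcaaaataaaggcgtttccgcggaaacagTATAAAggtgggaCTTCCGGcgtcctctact
ZNF431: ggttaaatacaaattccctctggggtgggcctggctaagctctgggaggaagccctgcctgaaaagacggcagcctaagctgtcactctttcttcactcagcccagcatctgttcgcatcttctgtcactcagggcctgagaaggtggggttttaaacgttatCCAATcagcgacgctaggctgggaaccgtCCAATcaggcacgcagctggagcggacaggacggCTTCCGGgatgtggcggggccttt
ZNF92: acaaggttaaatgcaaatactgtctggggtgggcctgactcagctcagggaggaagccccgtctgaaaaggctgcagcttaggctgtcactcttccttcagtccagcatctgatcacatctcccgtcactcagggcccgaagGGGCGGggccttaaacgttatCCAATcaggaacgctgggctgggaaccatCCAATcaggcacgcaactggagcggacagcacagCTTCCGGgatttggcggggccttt
ZNF792: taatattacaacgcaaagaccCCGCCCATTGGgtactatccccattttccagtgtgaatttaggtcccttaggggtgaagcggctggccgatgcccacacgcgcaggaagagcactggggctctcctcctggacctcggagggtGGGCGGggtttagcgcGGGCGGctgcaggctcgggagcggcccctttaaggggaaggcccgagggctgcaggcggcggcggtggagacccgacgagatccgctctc
ZNF689: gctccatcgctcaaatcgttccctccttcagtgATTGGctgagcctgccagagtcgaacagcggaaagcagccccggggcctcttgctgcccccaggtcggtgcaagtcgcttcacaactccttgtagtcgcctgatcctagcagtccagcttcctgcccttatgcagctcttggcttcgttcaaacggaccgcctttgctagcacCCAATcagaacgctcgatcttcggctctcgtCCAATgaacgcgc

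The ZNF761 and ZNF468 runs were identical at 79.5% of aligned positions, counted with gaps, and those of ZNF431 and ZNF92 at 83.5%. Those of ZNF549 and ZNF776, which lie in another array with other genes between them, matched at 50%, close to the 41.7% to 49.6% of the remaining pairs of the runs printed here. Both GC-box-rich promoters of the first pair lacked the CCGGAAG core, while ZNF549, ZNF776, ZNF431 and ZNF92 each held 1. A promoter of this table was found for 210 of the 244 genes. CCGGAAG occurred in 31.9% of them, against 17.9% of the promoters of genes at 5 CPM or more and 8.82% of all 27305 promoters. TATAAA occurred in 2.38%, 5.02% and 11.1%, GGGCGG in 61.9%, 69.2% and 42.3%, and CCAAT in 38.1%, 35.6% and 33%, in the same order. A match describes the letters only and shows no bound factor.

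Library totals ran from 15288688 to 26608325 estimated counts. Of 10 epithelial and ductal markers, 9 exceeded 10 TPM (a level scaled for transcript length and depth), their summed level being 8991 to 12043 TPM, while that of 7 mesenchymal markers was 15.2 to 29.1, that of 7 blood and endothelial markers was 3.39 to 8.67 and that of 5 acinar and islet markers 0 to 0.580. A pair of libraries stood apart in earlier work on these files, TRAP1 at 4 h replicate 1 and MS78 at 2 h replicate 1, and counts without both are given below. Replicate pairs with this MS78 library had a chi-square of their counts of 27.1 and 43.8 per degree of freedom, while all other pairs, those with that TRAP1 library included, had 4.51 to 15.1. TMM factors, which scale each library's depth, ran from 0.837 to 0.862 in TRAP1 at 4 h and from 0.994 to 1.00 in TRAP-1-NegB at 4 h.

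Per transcript length, the DMSO levels of the 244 genes ran from 0.634 TPM (ZNF738) to 272 TPM, with a median of 5.18. The 5 highest were ZNF593 at 272 ± 17.8 TPM (SD over 6 libraries), ZNF207 at 140 ± 16.5, ZNF511 at 139 ± 14.9, ZNF185 at 101 ± 7.87 and ZNF219 at 83.0 ± 5.86. ZNF593 takes part in making the large ribosomal subunit and ZNF207 (BuGZ) acts at the mitotic spindle, and none of the 5 had a KRAB match. ZNF593 and ZNF207 differed by more than their spread, while ZNF207 and ZNF511 did not.

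Together the 244 genes took a smaller share of all counts with TRAP1, TRAP-1-NegP and JQ1 than with the other treatments. At 2 h the share was 0.566 ± 0.00592% with DMSO, 0.577 ± 0.00300% with TRAP-1-NegB and 0.565 ± 0.0181% with MS78 (SD, n = 3). It was 0.440 ± 7.4e-05% with TRAP-1-NegP, 0.435 ± 0.00475% with TRAP1 and 0.449 ± 0.0128% with JQ1. At 4 h the same groups had 0.533 ± 0.00826%, 0.518 ± 0.00543%, 0.552 ± 0.00802%, 0.414 ± 0.00491%, 0.372 ± 0.00432% and 0.448 ± 0.00174%. The libraries of TRAP1, TRAP-1-NegP and JQ1 all lay below those of TRAP-1-NegB and MS78 at both times. They also lay below those of DMSO, which is a description since DMSO levels chose the genes. These shares use counts without TMM scaling, which differed between the groups, and with that scaling the difference of TRAP1 from TRAP-1-NegB is smaller. The TMM-scaled median of the 244 genes at 4 h was 9.12 to 9.96 CPM with TRAP1 and 11.7 to 12.4 with TRAP-1-NegB. In a bulk library, fewer cells that express a gene and less RNA per cell cannot be told apart, and a share of the library does not measure total RNA.

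After 2 h the ZNF genes were lower with TRAP1, TRAP-1-NegP and JQ1 far more often than they were higher. A gene is called here when the Benjamini-Hochberg adjusted p of edgeR's quasi-likelihood test, taken over all 14988 genes tested, is under 0.05. With TRAP1, 92 of the 244 genes were lower and 9 higher than with TRAP-1-NegB, where 9.13% of all genes tested were lower and 11.6% higher. Shares of all genes, here and below, are not matched for level. Only 10404 genes reached 5 CPM in DMSO, and calls are harder to reach for genes of lower level. TRAP-1-NegP gave 87 lower and 8 higher, beside 10.6% and 15% of all genes. JQ1 gave 96 lower and 13 higher, beside 10.3% and 12% of all genes. Median log2 fold changes were −0.36, −0.31 and −0.38, against 0.04, 0.03 and 0.04 for all genes. These comparisons share the TRAP-1-NegB libraries of their time, so their likeness is not independent. Without the pair of libraries that stood apart, TRAP1 gave 114 lower and 9 higher, TRAP-1-NegP 108 and 9, and JQ1 120 and 16.

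**Figure D1:**
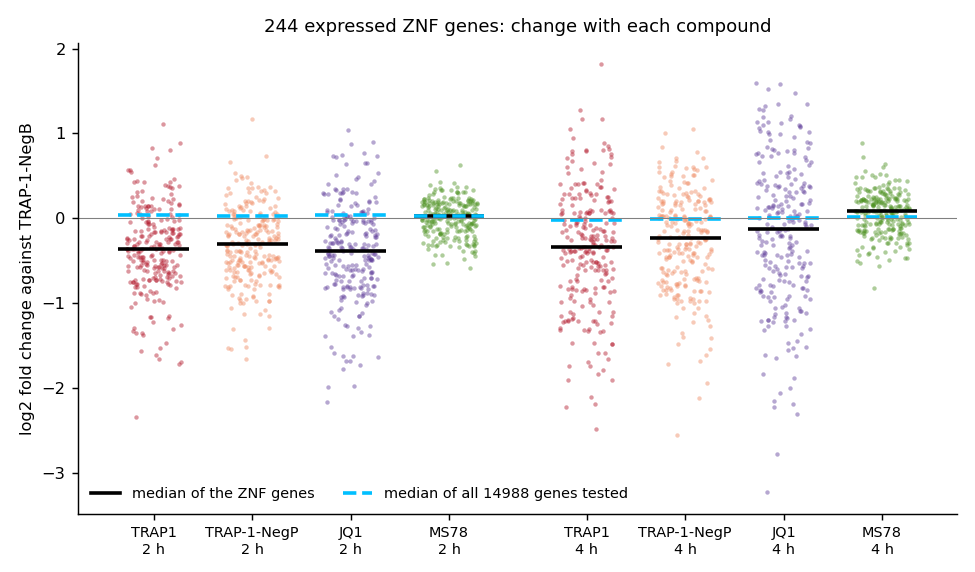
Each dot is the log2 fold change of 1 of 244 ZNF genes against TRAP-1-NegB, by compound and time (3 libraries a group); the black bar is their median and the dashed blue bar that of all 14988 genes tested. The medians of the ZNF genes lie below those of all genes with TRAP1, TRAP-1-NegP and JQ1, from −0.38 to −0.12, and not with MS78.

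The leading falls at 2 h included genes of low and of higher level. ZNF792, a KRAB protein with 12 finger matches, stood at 3.73, 4.47 and 4.38 CPM with TRAP-1-NegB, at 1.38, 0.225 and 0.806 with TRAP1 and at 0.943, 0.831 and 1.04 with JQ1. Every TRAP1 and JQ1 library was below every TRAP-1-NegB library, and the log2 fold changes were −2.34 ± 0.44 (adjusted p = 3.92e-05) and −2.16 ± 0.43 (adjusted p = 0.000102), the ± value here and below being the SE. ZNF689 had 16.9, 14.1 and 17.2 CPM with TRAP-1-NegB and 5.87, 4.04 and 4.88 with TRAP1, again without overlap, a change of −1.69 ± 0.20 (adjusted p = 2.18e-09). The other leading falls with TRAP1 were ZNF764 (−1.71), ZNF329 (−1.66) and ZNF16 (−1.61). With TRAP-1-NegP they were ZNF16 (−1.65), ZNF232 (−1.54), ZNF329 (−1.53), ZNF772 (−1.51) and ZNF764 (−1.43). With JQ1, ZNF792 was followed by ZNF329 (−1.99), ZNF507 (−1.98), ZNF689 (−1.77) and ZNF16 (−1.72). Falls of at least 2-fold were called for 21, 13 and 29 genes with TRAP1, TRAP-1-NegP and JQ1. The share of all genes with calls of this size was not counted, here or below, so such counts have no background beside them.

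Rises at 2 h were few and mostly small, with 1 call of at least 2-fold for each of the 3 compounds. ZNF488, a transcriptional repressor known from oligodendrocyte maturation, stood at 10.7, 11.6 and 12.1 CPM with TRAP-1-NegB and at 23, 27.5 and 24 with TRAP1. All TRAP1 libraries lay above all others of that time, and the change was 1.11 ± 0.16 (adjusted p = 1.2e-07). ZNF296 had 9.72, 12 and 12.3 CPM with TRAP-1-NegB and 28.2, 23 and 25.6 with TRAP-1-NegP, without overlap, a change of 1.17 ± 0.16 (adjusted p = 9.62e-08). The other leading rises with TRAP1 were ZNF654 (0.88), ZNF296 (0.83), ZNF280C (0.81) and ZNF720 (0.72). With TRAP-1-NegP they were ZNF280C (0.74), ZNF703 (0.66), ZNF580 (0.49) and ZNF761 (0.48), and with JQ1 ZNF703 (1.04), ZNF280C (0.90), ZNF296 (0.87), ZNF850 (0.77) and ZNF761 (0.75). Leaving out 1 library ended several of these calls. They were ZNF720 with TRAP1 (without TRAP-1-NegB replicate 2 or 3 or TRAP1 replicate 1 or 3, 0.49 to 0.73), ZNF580 with TRAP-1-NegP (without TRAP-1-NegB replicate 1 or 2 or TRAP-1-NegP replicate 1 or 2, 0.34 to 0.45), ZNF761 with TRAP-1-NegP (without TRAP-1-NegB replicate 2, 0.34) and ZNF850 with JQ1 (without JQ1 replicate 2 or TRAP-1-NegB replicate 1 or 2, 0.72 to 0.73).

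After 4 h the balance differed between compounds. With TRAP1, 102 ZNF genes were lower and 32 higher than with TRAP-1-NegB, while 24.2% of all genes tested were lower and 22% higher. TRAP-1-NegP gave 87 lower and 25 higher, beside 18.7% and 17.8% of all genes. JQ1 gave 93 lower and 60 higher, beside 23.8% and 23.6%, and its share of higher genes was thus near the background. Medians were −0.34, −0.24 and −0.12, against −0.02, −0.01 and 0.00 for all genes. Falls of at least 2-fold were called for 44, 19 and 41 genes and such rises for 5, 2 and 23, again without a share of all genes at that size. Without the pair of libraries that stood apart the counts were 106 lower and 28 higher, 93 and 29, and 99 and 63.

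ZNF618, a partner of the 5-hydroxymethylcytosine reader UHRF2, had 8.33, 11.3 and 11.8 CPM with TRAP-1-NegB at 4 h. It had 2.04, 2.21 and 1.31 with TRAP1, 0.603, 3.62 and 0.963 with TRAP-1-NegP and 2.50, 1.79 and 2.05 with JQ1. All 9 of these libraries lay below the TRAP-1-NegB libraries, and the changes were −2.48 ± 0.31 (adjusted p = 3.8e-09), −2.55 ± 0.31 (adjusted p = 3.95e-09) and −2.31 ± 0.31 (adjusted p = 1.57e-08). At 2 h the JQ1 libraries had 7.96, 10.3 and 8.67 CPM and overlapped those of TRAP-1-NegB at 10.8, 8.36 and 10.2. ZNF792 fell further with JQ1 at 4 h, to 0.381, 0.664 and 0.200 CPM from 3.05, 4.87 and 3.88 with TRAP-1-NegB, a change of −3.23 ± 0.48 (adjusted p = 1.02e-07). ZNF507 had 22.9, 19.2 and 16.1 CPM with TRAP-1-NegB and 4.47, 6.21 and 4.74 with TRAP1, without overlap (−1.91 ± 0.19, adjusted p = 7.62e-13). Levels under 1 CPM, as those of ZNF792 here, rest on few counts.

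With TRAP1 the other leading falls at 4 h were ZNF37A (−2.22), ZNF792 (−2.19), ZNF710 (−2.10), ZNF518A (−1.90), ZNF747 (−1.84) and ZNF609 (−1.78), a gene whose protein is known to bind the cohesin loader NIPBL. With TRAP-1-NegP they were ZNF32 (−2.11), ZNF792 (−1.94), ZNF507 (−1.72), ZNF343 (−1.67), ZNF341 (−1.61), ZNF689 (−1.54) and ZNF33B (−1.48). With JQ1 they were ZNF747 (−2.77), ZNF710 (−2.22), ZNF507 (−2.19), ZNF689 (−2.15), ZNF32 (−2.06) and ZNF341 (−2.0). ZNF33B shares much sequence with ZNF33A, so its estimated counts are uncertain. ZNF747 with TRAP1 varied between libraries, at 2.57, 4.14 and 8.17 CPM against 17, 18 and 17.7 with TRAP-1-NegB.

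ZNF703, which lacks a C2H2 match and is known as a corepressor amplified in luminal breast cancer, rose with all 3 compounds. It had 24.6, 23.3 and 26.6 CPM with TRAP-1-NegB at 4 h, 40.1, 42.1 and 48.2 with TRAP1, 49.3, 50.6 and 54.6 with TRAP-1-NegP and 68.1, 70.7 and 75.5 with JQ1. These groups did not overlap with TRAP-1-NegB, and the changes were 0.80 ± 0.11 (adjusted p = 1.36e-08), 1.05 ± 0.11 (adjusted p = 1.49e-11) and 1.52 ± 0.11 (adjusted p = 1.52e-17). ZNF280C had 9.61, 8.95 and 9.11 CPM with TRAP-1-NegB and 27, 30.1 and 26.8 with JQ1, without overlap (1.60 ± 0.17, adjusted p = 3.02e-11). ZNF654 reached 28.9, 25 and 28.8 CPM with JQ1 and 22.2, 27.2 and 22.7 with TRAP1, above 11.7, 9.57 and 8.54 with TRAP-1-NegB (1.48 and 1.28). ZNF761 also rose with each of them, by 1.05, 0.84 and 1.58 in the order TRAP1, TRAP-1-NegP, JQ1.

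**Figure D2:**
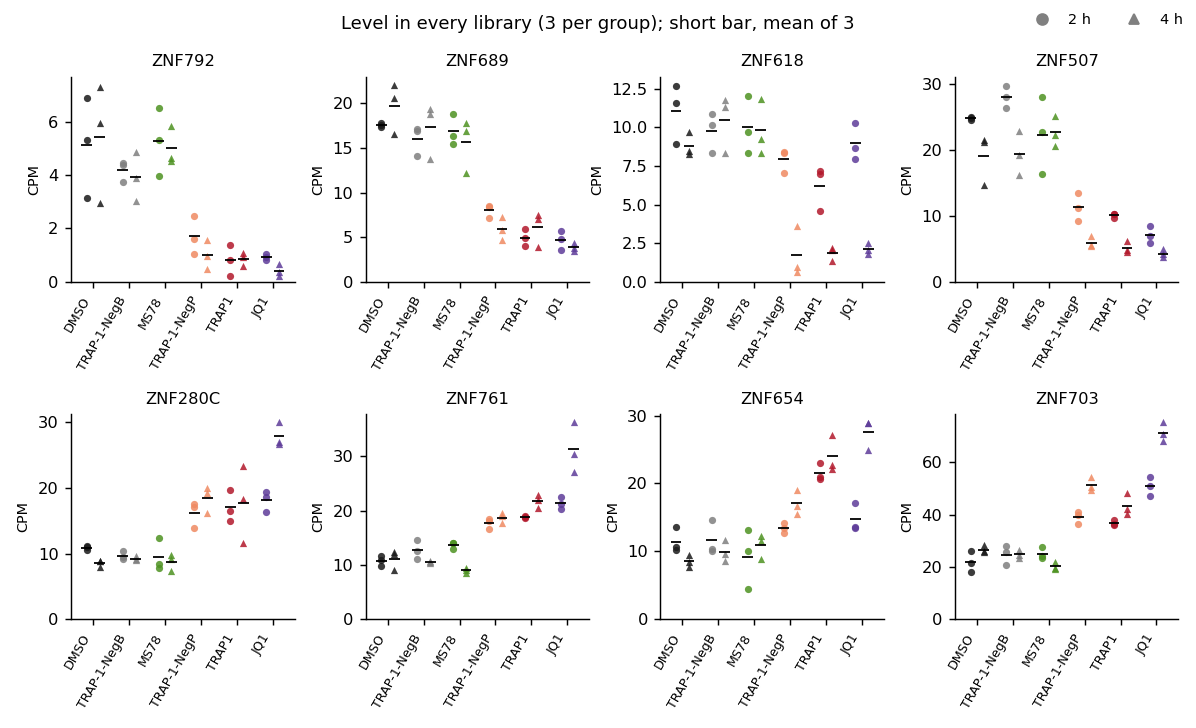
CPM of 8 ZNF genes in every library, by treatment (circles 2 h, triangles 4 h, short bars the mean of 3 libraries), on linear axes from 0. ZNF792, ZNF689, ZNF618 and ZNF507 lie lower with TRAP-1-NegP, TRAP1 and JQ1 at 4 h than with TRAP-1-NegB, and ZNF280C, ZNF761, ZNF654 and ZNF703 higher.

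The remaining leading rises with TRAP1 at 4 h were ZNF488, ZNF79 (1.17), the pseudogene ZNF767 (1.16), ZNF280C (0.94), ZNF354A (0.89) and ZNF431 (0.85). The call of ZNF431 was lost without TRAP-1-NegB replicate 3 (0.67, adjusted p = 0.106) or TRAP1 replicate 2 (0.73, adjusted p = 0.0715). With TRAP-1-NegP they were ZNF200 (0.71), ZNF818P (0.71), ZNF28 (0.66) and ZNF419 (0.62), besides ZNF703, ZNF280C, ZNF761 and ZNF654 (1.00 and 0.78 for ZNF280C and ZNF654). The call of ZNF419 was lost without TRAP-1-NegB replicate 1 (0.52) or TRAP-1-NegP replicate 3 (0.53). With JQ1 the list was completed by ZNF468 (1.35), ZNF431 (1.35), ZNF92 (1.32) and ZNF738 (1.29).

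Most of the genes lower at 2 h were also lower at 4 h. Of the 92 genes lower with TRAP1 at 2 h, 66 were lower at 4 h, 26 were not called and 0 were higher. Of the 87 with TRAP-1-NegP, 56 were lower, 30 not called and 1 higher, and of the 96 with JQ1, 63, 30 and 3. Of the genes higher at 4 h, 24 of 32 with TRAP1, 19 of 25 with TRAP-1-NegP and 45 of 60 with JQ1 had no call at 2 h. The same counts were not made for all genes tested, so they do not show a trait particular to the ZNF genes. The change from 2 to 4 h, each compound against TRAP-1-NegB, was tested as an interaction. For TRAP1, 8 genes changed upwards and 22 downwards, beside 6.97% and 9.4% of all genes tested. For TRAP-1-NegP it was 20 and 14, beside 6.41% and 8.03%. For JQ1 it was 59 and 21, beside 11.5% and 12.7%, and the median interaction was 0.30, against 0.10 for TRAP1 and 0.09 for TRAP-1-NegP. A correction of the counts for GC content and length gave 27 and 23 for TRAP1, and DESeq2's size factors 13 and 21. The 34 calls of TRAP-1-NegP fell to as few as 21 without TRAP-1-NegB replicate 1 at 2 h, TRAP-1-NegB replicate 3 at 4 h or TRAP-1-NegP replicate 3 at 2 h.

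ZNF281, a factor known from pluripotent cells and from epithelial-mesenchymal transition, showed such a turn. At 2 h it had 23.5, 15.8 and 19.7 CPM with TRAP-1-NegB and 13, 9.85 and 10.7 with JQ1, where it fell (−0.81 ± 0.18, adjusted p = 0.000582). At 4 h it had 14.8, 15.1 and 13.6 and 30.5, 20.9 and 18.8, where it rose (0.69 ± 0.18, adjusted p = 0.00129). The groups did not overlap at either time. The call at 4 h was lost without JQ1 replicate 1 (0.45), while the interaction was 1.5 ± 0.26 (adjusted p = 1.36e-05). ZNF32, by contrast, lay at 8.18, 8.34 and 7.14 CPM with TRAP-1-NegP at 2 h and at 1.36, 2.90 and 2.89 at 4 h, beside 9.25, 9.41 and 6.56 and 8.18, 11.2 and 11.5 with TRAP-1-NegB. The groups overlapped at 2 h and not at 4 h, and the interaction was −2.02 ± 0.33 (adjusted p = 1.96e-05).

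The compounds were compared directly at the same dose and time. TRAP1 and TRAP-1-NegP differed in few ZNF genes at 2 h, 2 being higher and 1 lower with TRAP1, beside 0.527% and 0.274% of all genes tested. At 4 h 11 were higher and 30 lower, beside 7.25% and 8.09%. TRAP1 and JQ1 differed in 4 higher and 1 lower gene at 2 h, beside 1.1% and 0.887%, and in 19 higher and 61 lower at 4 h, beside 12.5% and 14.9%. JQ1 and TRAP-1-NegP differed in 13 genes higher and 22 lower with JQ1 at 2 h, beside 5.65% and 7.26%, and in 58 higher and 28 lower at 4 h, beside 12.9% and 12.9%. Correction for GC content and length moved these splits: TRAP1 against TRAP-1-NegP at 4 h to 16 higher and 26 lower, TRAP1 against JQ1 at 4 h to 19 and 33, and JQ1 against TRAP-1-NegP to 4 and 18 at 2 h and to 24 and 22 at 4 h. The part of GC content in these differences was not tested further. Single libraries moved the totals at 2 h: from 3 to 1 for TRAP1 against TRAP-1-NegP (without replicate 3 of either), from 5 to as few as 2 for TRAP1 against JQ1 (without TRAP1 replicate 3 or JQ1 replicate 1 or 2) and from 35 to as few as 21 for JQ1 against TRAP-1-NegP (without JQ1 replicate 2 or TRAP-1-NegP replicate 3).

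ZNF488 had the largest difference at 4 h of the genes called between TRAP1 and TRAP-1-NegP, and of those called between TRAP1 and JQ1. At 4 h it had 17.3, 16.7 and 18 CPM with DMSO, 17.2, 14.3 and 16.5 with TRAP-1-NegB, 15.9, 16.2 and 11.8 with MS78, 16.4, 19.2 and 16 with TRAP-1-NegP and 11.7, 11.8 and 12.9 with JQ1. With TRAP1 it had 57.5, 49.2 and 62.8 CPM, all above every other library. The change was 1.82 ± 0.15 (adjusted p = 6.12e-15) against TRAP-1-NegB, 1.71 ± 0.15 (adjusted p = 5.75e-13) against TRAP-1-NegP and 2.21 ± 0.16 (adjusted p = 8.25e-17) against JQ1. TRAP-1-NegP differed from TRAP-1-NegB by 0.10 (95% interval −0.21 to 0.41, adjusted p = 0.646), which did not pass, and JQ1 was lower than TRAP-1-NegB (−0.40 ± 0.16, adjusted p = 0.0335). At 2 h the differences were already 0.99 against TRAP-1-NegP and 1.15 against JQ1.

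ZNF385A, a zinc finger protein known to bind p53 and to favour its cell cycle arrest genes, separated the compounds in another way. At 4 h it had 108, 103 and 103 CPM with TRAP-1-NegB and 98.3, 112 and 119 with TRAP1, which overlapped (0.07, 95% interval −0.12 to 0.26, adjusted p = 0.6). With TRAP-1-NegP it had 61.3, 62.2 and 57.6 CPM and with JQ1 45.2, 45.5 and 46, both below all TRAP1 libraries. It fell with TRAP-1-NegP (−0.79 ± 0.10, adjusted p = 1.27e-09) and JQ1 (−1.20 ± 0.10, adjusted p = 1.84e-15), and TRAP1 was higher than each of them (0.86 and 1.27). ZNF319 rose with TRAP1 at 4 h to 21.1, 28.9 and 28.7 CPM from 17, 17.8 and 17.9 with TRAP-1-NegB, without overlap (0.58 ± 0.16, adjusted p = 0.00197). It fell with TRAP-1-NegP (−0.57) and JQ1 (−0.57).

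ZNF367, ZNF518A and ZNF37A were lower with TRAP1 than with both other compounds at 4 h. ZNF367 had 4.86, 4.55 and 6.46 CPM with TRAP1, 11.5, 12.2 and 11.9 with TRAP-1-NegB, 14.9, 13.7 and 12.3 with TRAP-1-NegP and 18.7, 21.8 and 19.9 with JQ1. It fell with TRAP1 (−1.17 ± 0.18, adjusted p = 1.49e-07) and rose with JQ1 (0.76 ± 0.16, adjusted p = 9.57e-05), with no overlap of either group with TRAP-1-NegB. ZNF518A had 2.72, 3.08 and 3.83 CPM with TRAP1, 7.33, 9.52 and 8.18 with TRAP-1-NegP and 8.10, 9.24 and 7.28 with JQ1, and the differences of TRAP1 from them were −1.38 and −1.36. ZNF37A had 1.65, 0.782 and 1.31 CPM with TRAP1, 1.81, 4.07 and 3.13 with TRAP-1-NegP and 3.37, 3.83 and 4.29 with JQ1. Its differences were −1.27 and −1.62. A fit of only the compared groups ended the call of ZNF37A against TRAP-1-NegP (adjusted p = 0.156).

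**Figure D3:**
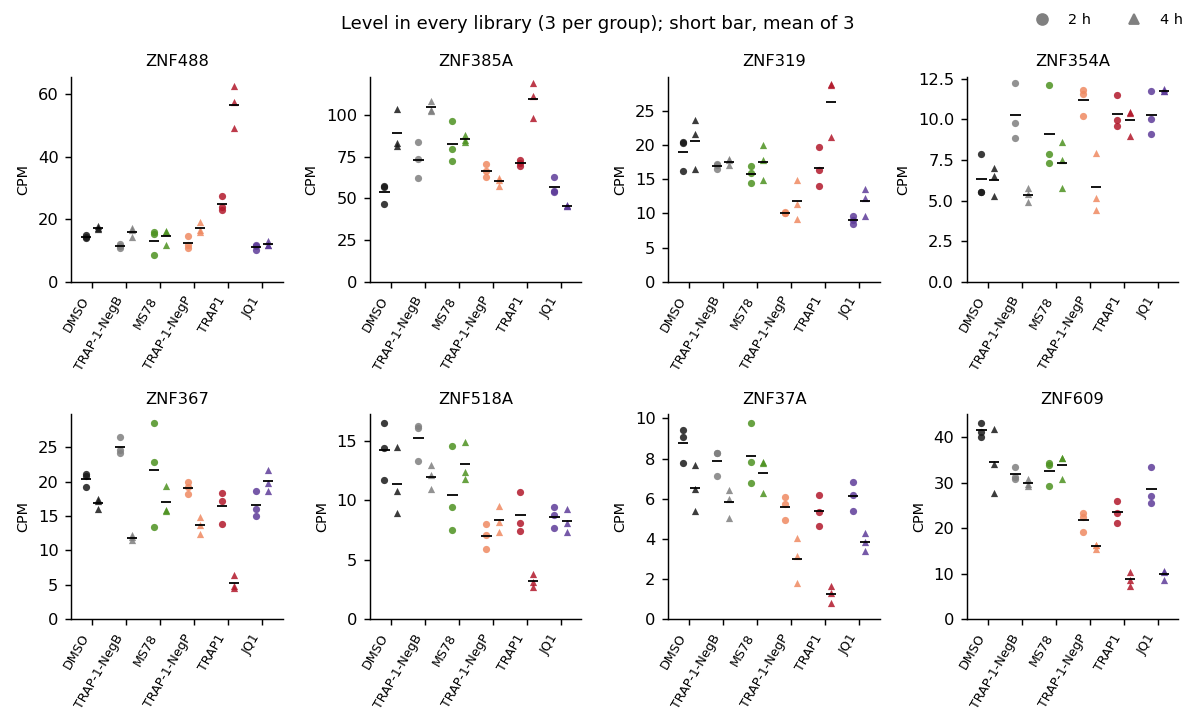
CPM of 8 ZNF genes in every library, by treatment (circles 2 h, triangles 4 h, short bars the mean of 3 libraries), on linear axes from 0. The 3 TRAP1 libraries at 4 h lie above all others for ZNF488, at 49.2 to 62.8 CPM, and below all others for ZNF367, ZNF518A and ZNF37A.

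Other genes higher with TRAP1 than with TRAP-1-NegP at 4 h were ZNF767 (1.18), ZNF319 (1.15) and ZNF354A (0.78), and lower ones were ZNF609 (−0.88) and ZNF232 (−0.81). Leaving out TRAP-1-NegP replicate 1 ended the call of ZNF354A (0.61), and single libraries ended that of ZNF232 (without TRAP-1-NegP replicate 1 or 3 or TRAP1 replicate 1, −0.80 to −0.59). Against JQ1, TRAP1 was higher for ZNF319 (1.15), ZNF79 (0.75) and ZNF337 (0.65, lost without JQ1 replicate 2 or TRAP1 replicate 2, 0.51 to 0.60) and lower for ZNF714 (−1.34) and ZNF551 (−1.30). At 2 h the calls beside ZNF488 were ZNF319 (0.72) and ZNF579 (−0.79) against TRAP-1-NegP, and ZNF232 (1.13), ZNF319 (0.88), ZNF362 (0.65) and ZNF703 (−0.46) against JQ1. Calls at 2 h that were lost without single libraries were ZNF319 (without TRAP-1-NegP replicate 1, 2 or 3 or TRAP1 replicate 3, 0.58 to 0.73) and ZNF579 (without TRAP-1-NegP replicate 1 or 3 or TRAP1 replicate 1, 2 or 3, −0.90 to −0.63) against TRAP-1-NegP, and ZNF232 (without JQ1 replicate 1 or 2 or TRAP1 replicate 3, 0.83 to 1.11), ZNF362 (without JQ1 replicate 1, 2 or 3 or TRAP1 replicate 2 or 3, 0.51 to 0.75) and ZNF703 (without JQ1 replicate 1 or TRAP1 replicate 1, −0.45 to −0.41) against JQ1.

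For several of the strongest changes the difference between compounds did not pass the test. TRAP1 and TRAP-1-NegP differed at 4 h by 0.07 (95% interval −0.62 to 0.75, adjusted p = 0.938) for ZNF618, by −0.25 (95% interval −1.17 to 0.68, adjusted p = 0.799) for ZNF792 and by −0.19 (95% interval −0.58 to 0.20, adjusted p = 0.583) for ZNF507. For ZNF703 and ZNF761 it was −0.25 (95% interval −0.46 to −0.03, adjusted p = 0.116) and 0.22 (95% interval −0.05 to 0.49, adjusted p = 0.303). TRAP1 and JQ1 differed by −0.17 (95% interval −0.85 to 0.50, adjusted p = 0.761) for ZNF618, 0.12 (95% interval −0.19 to 0.44, adjusted p = 0.611) for ZNF710 and −0.17 (95% interval −0.46 to 0.11, adjusted p = 0.407) for ZNF609. These intervals still allow differences of up to about the size of their bounds, so a missed threshold does not show that the compounds act alike. ZNF710 did differ between TRAP1 and TRAP-1-NegP (−0.75 ± 0.15, adjusted p = 0.000194).

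JQ1 gave higher levels than TRAP-1-NegP at 4 h for ZNF92 (1.10), ZNF354A (1.02) and ZNF286A (0.95), and lower levels for ZNF747 (−1.38), ZNF133 (−0.93) and ZNF764 (−0.90, lost without JQ1 replicate 2, −0.78). ZNF92 had 41.1, 41.4 and 35.5 CPM with JQ1, 21.4, 18 and 15.7 with TRAP-1-NegP and 17.1, 17.2 and 13 with TRAP-1-NegB, and the JQ1 libraries lay above the others, which overlapped. At 2 h JQ1 was higher than TRAP-1-NegP for ZNF704 (0.52), ZNF275 (0.51) and ZNF532 (0.51) and lower for ZNF579 (−1.17), ZNF830 (−1.13) and ZNF784 (−1.04). Single libraries ended the calls of ZNF704 (without JQ1 replicate 1 or 2 or TRAP-1-NegP replicate 1 or 3, 0.45 to 0.52) and ZNF275 (without JQ1 replicate 1 or TRAP-1-NegP replicate 1 or 3, 0.44 to 0.47).

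With JQ1 at 4 h the balance of higher and lower genes varied with the KRAB box, chromosome 19 and the GC content of the transcript. These splits are given as counts, and the differences between them were not tested. Of all genes tested, 23.6% were higher and 23.8% lower with JQ1 at 4 h, and 12% and 10.3% at 2 h. At 4 h it was 22% and 24.2% with TRAP1 and 17.8% and 18.7% with TRAP-1-NegP. With JQ1 at 4 h the KRAB genes as a whole and those with at least 10 finger matches lay near these shares. Of 120 genes with a KRAB match, 36 were higher and 30 lower with JQ1 at 4 h, with a median of 0.08, and of 124 without it 24 and 63, with a median of −0.33. At 2 h the KRAB genes gave 7 higher and 40 lower and the rest 6 and 56. KRAB genes on chromosome 19 numbered 67 and gave 26 higher and 10 lower at 4 h with a median of 0.33, while 53 on other chromosomes gave 10 and 20. With TRAP1 at 4 h these 67 gave 12 higher and 11 lower and the 53 gave 4 and 24, and with TRAP-1-NegP 7 and 10 and 1 and 20. By finger number, JQ1 at 4 h gave 31 higher and 35 lower among 118 genes with at least 10 matches and 11 and 29 among 56 with 0 to 4.

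GC content moved with these calls. With JQ1 at 4 h, 113 ZNF genes under 45% GC gave 43 higher and 24 lower (median 0.26), and 70 of at least 55% gave 5 and 47 (median −0.71). Other genes of at least 5 CPM went the same way, with 37.3% higher and 19% lower among 3482 under 45% GC and 18.6% higher and 43.2% lower among 3210 of at least 55%. At 2 h the pattern differed: of the 70 GC-rich ZNF genes, 34 were lower with TRAP1, 22 with TRAP-1-NegP and 38 with JQ1, and of the 113 GC-poor genes 33, 44 and 38. Among other GC-rich genes 9.75% were lower with TRAP1 and 11.3% with JQ1 at 2 h. After a correction for GC content and length, the ZNF genes gave 13 higher and 97 lower, 11 and 75, and 18 and 111 at 2 h with TRAP1, TRAP-1-NegP and JQ1, and 34 and 93, 38 and 80, and 57 and 92 at 4 h. The KRAB genes of chromosome 19 then gave 24 higher and 11 lower with JQ1 at 4 h, and the GC-poor genes 35 and 31. No share of all genes stands beside counts after this correction, here or elsewhere, so they are not set against a background. The part of GC content in these changes was not tested beyond this correction.

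**Figure D4:**
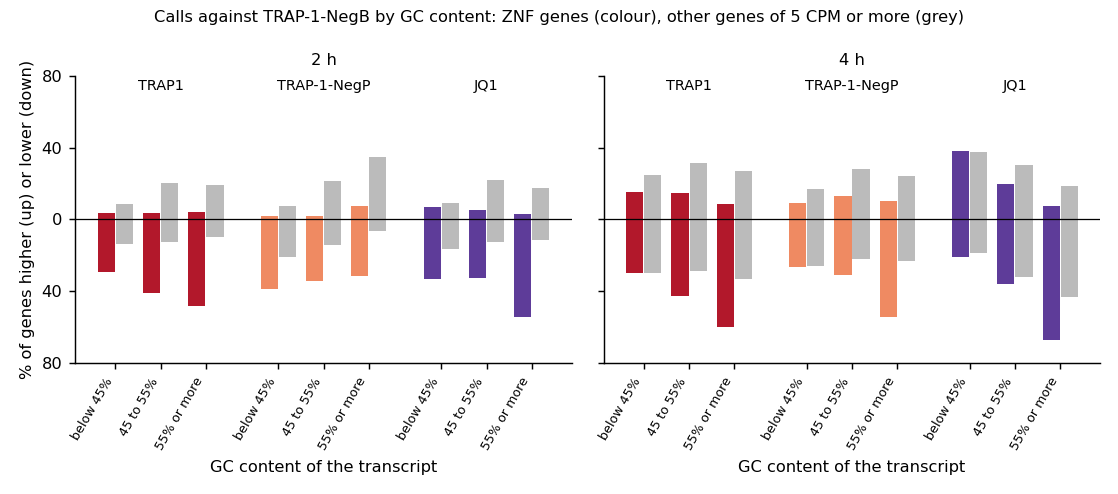
Bars give the percent of genes called higher (upwards) or lower (downwards) against TRAP-1-NegB, by class of transcript GC content, for the ZNF genes (colour) and for the other genes of 5 CPM or more (grey), at 2 h (left) and 4 h (right). With JQ1 at 4 h, 43 of 113 ZNF genes under 45% GC were higher and 47 of 70 of at least 55% GC lower.

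Genes that neighbour each other were described in arrays, formed by joining members less than 1 Mb apart, and 10 arrays held at least 5 of them. Against TRAP-1-NegB at 2 h, 11.6% of all genes tested were higher and 9.13% lower with TRAP1. With TRAP-1-NegP it was 15% and 10.6%, and with JQ1 12% and 10.3%. At 4 h these shares were 22% and 24.2%, 17.8% and 18.7%, and 23.6% and 23.8%, in the same order. The array from ZNF614 to ZNF331 on chromosome 19 (52012765 to 53580269) held 22 of the genes, 20 of them with a KRAB match. At 2 h few of its genes were called, 1 higher and 1 lower with TRAP1, 1 and 1 with TRAP-1-NegP and 4 and 2 with JQ1. At 4 h 16 were higher and 1 lower with JQ1 (median 0.86), 8 and 1 with TRAP1 (median 0.20) and 6 and 2 with TRAP-1-NegP (median 0.17). After the correction for GC content and length, 13 were higher and 1 lower with JQ1 (median 0.68). Without the pair of libraries that stood apart, of which TRAP1 replicate 1 belongs to 4 h, TRAP1 gave 5 higher and 1 lower and JQ1 16 and 1. Of the 22, 14 were higher and 0 lower with JQ1 than with TRAP-1-NegP, beside 12.9% and 12.9% of all genes tested. With TRAP1, 0 were higher and 11 lower than with JQ1, beside 12.5% and 14.9%.

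The summed level of the 22 genes at 4 h was 192, 200 and 196 CPM with TRAP-1-NegB, 239, 214 and 230 with TRAP-1-NegP, 248, 239 and 234 with TRAP1 and 346, 376 and 327 with JQ1. The JQ1 libraries lay above those of the other groups, and the TRAP1 and TRAP-1-NegP libraries above those of TRAP-1-NegB. At 2 h the sum was 248, 246 and 217 CPM with TRAP-1-NegB and 199, 203 and 205 with DMSO. It was 229, 238 and 232 with TRAP-1-NegP, 247, 241 and 257 with TRAP1 and 258, 260 and 243 with JQ1. At 2 h these compounds overlapped TRAP-1-NegB, and all these groups lay above DMSO, a description since DMSO levels chose the genes. At 4 h DMSO had 209, 177 and 188 CPM and overlapped TRAP-1-NegB. ZNF761 led the array at 4 h, with 10.5, 10.7 and 10.3 CPM with TRAP-1-NegB and 27.1, 36.3 and 30.4 with JQ1 (1.58 ± 0.14, adjusted p = 1.6e-14). ZNF468 followed, with 15.1, 14.9 and 15.5 and 37.7, 42.5 and 35.9 CPM (1.35 ± 0.15, adjusted p = 4.75e-11), and neither gene's groups overlapped. The other rises were ZNF28 (1.27), ZNF525 (1.20), ZNF818P (1.20), ZNF701 (1.17), ZNF160 (1.07), ZNF816 (1.02), ZNF841 (1.00), ZNF888 (0.90), ZNF845 (0.89), ZNF600 (0.83), ZNF614 (0.72), ZNF347 (0.55), ZNF83 (0.54) and ZNF765 (0.45). ZNF616 fell (−0.62), and ZNF766, ZNF480, ZNF528, ZNF320 and ZNF331 did not pass, at −0.42, 0.20, −0.36, 0.17 and 0.21. Neighbours here are close copies and ZNF28, ZNF468 and ZNF320, as well as ZNF525 and ZNF765, overlap in position, so reads may be split between them. Promoters of 17 of the 22 genes were in the table, and GGGCGG occurred in 15 (88.2%), CCAAT in 5 (29.4%) and CCGGAAG in 1 (5.88%).

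A second large array, from ZNF264 to ZNF446 (57191500 to 58481230), held 23 of the genes, 21 with a KRAB match, and behaved otherwise in time. At 2 h 12 were lower and 0 higher with TRAP1 (median −0.73), 10 and 0 with TRAP-1-NegP (−0.51) and 10 and 1 with JQ1 (−0.63). At 4 h 6 were lower and 3 higher with TRAP1, 3 and 2 with TRAP-1-NegP and 5 and 5 with JQ1. These counts at 4 h lay near or below the shares of all genes tested, 24.2% and 22%, 18.7% and 17.8%, and 23.8% and 23.6%. Its summed level at 2 h was 233, 218 and 223 CPM with TRAP-1-NegB, 163, 153 and 155 with TRAP1 and 168, 172 and 162 with JQ1, without overlap. At 4 h it was 209, 195 and 196, 182, 177 and 177 and 221, 216 and 207. ZNF776 had 9.48, 10.6 and 9.49 CPM with TRAP-1-NegB and 5.02, 3.72 and 6.34 with TRAP-1-NegP at 2 h, and 7.04, 8.02 and 5.03 and 5.38, 11.4 and 7.70 at 4 h, overlapping only at 4 h. ZNF549 had 7.94, 6.07 and 6.48 CPM with TRAP-1-NegB and 3.04, 3.49 and 3.12 with JQ1 at 2 h, without overlap (−1.08 ± 0.27, adjusted p = 0.00197). In the 22 promoters matched, CCGGAAG occurred in 13 (59.1%), CCAAT in 14 (63.6%) and GGGCGG in 8 (36.4%).

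**Figure D5:**
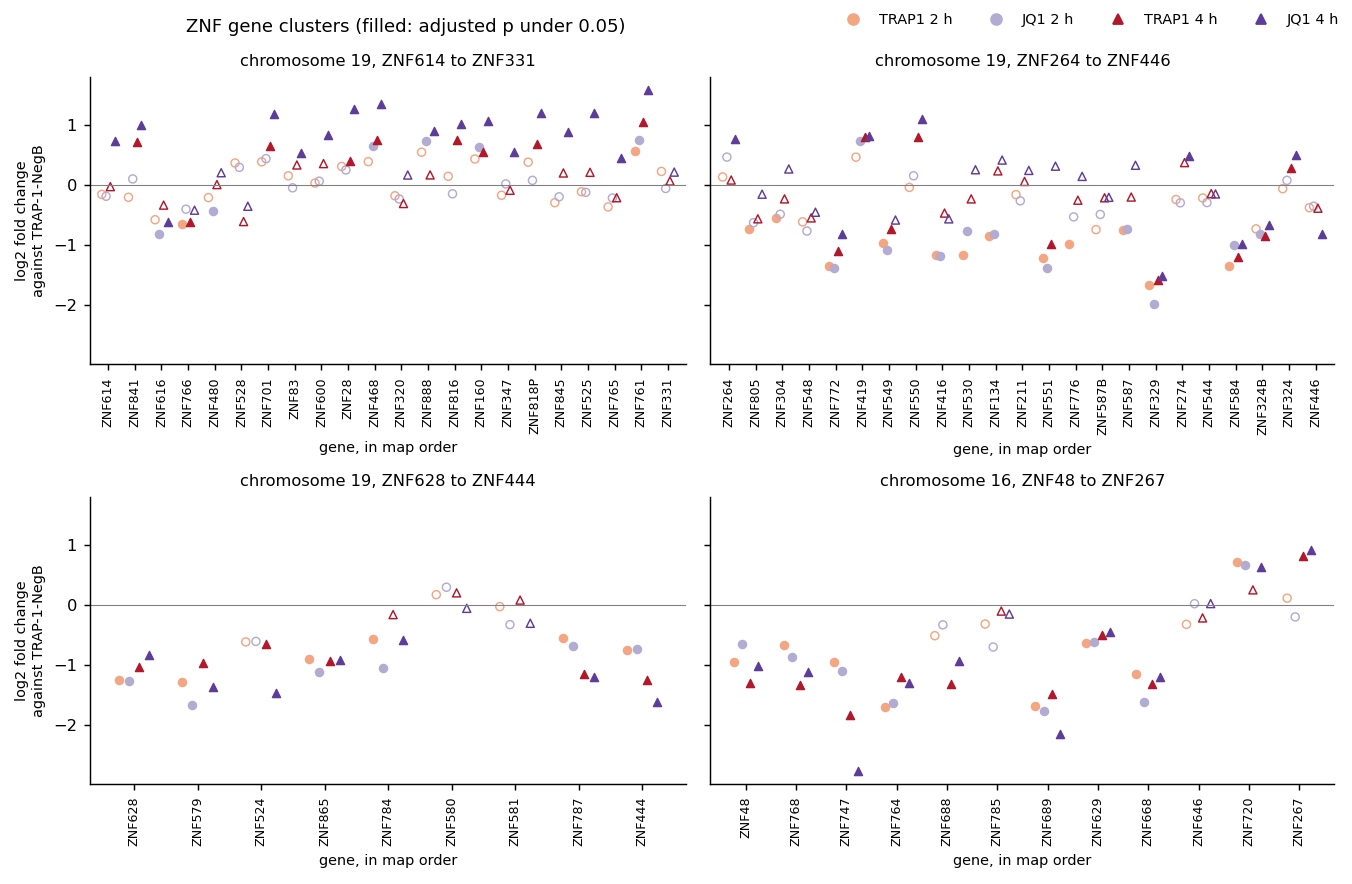
Log2 fold change against TRAP-1-NegB of the ZNF genes of 4 arrays in map order, for TRAP1 and JQ1 at 2 h (circles) and 4 h (triangles); filled symbols have an adjusted p under 0.05. In the array from ZNF614 to ZNF331 16 of 22 genes are higher with JQ1 at 4 h, beside 23.6% of all genes tested. In the array from ZNF264 to ZNF446 12 of 23 are lower with TRAP1 at 2 h, beside 9.13%.

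Falls prevailed at 4 h in a pair of arrays of higher GC content. The array from ZNF628 to ZNF444 on chromosome 19 (55476332 to 56160893) held 9 genes without a KRAB match, with a median GC content of 65.9%. At 4 h 6 were lower with TRAP1 (median −0.94), 6 with TRAP-1-NegP (−0.63) and 7 with JQ1 (−0.92), and 0 were higher. On chromosome 16 the array from ZNF48 to ZNF267 (30378106 to 31917357) held 12 genes, of which 8 were lower and 1 higher with TRAP1 at 4 h (median −1.25), 7 and 0 with TRAP-1-NegP (−0.45) and 8 and 2 with JQ1 (−0.98). Of 21 other genes tested within that interval, 11 were lower and 4 higher with TRAP1 at 4 h. Its summed level at 4 h was 243, 245 and 232 CPM with TRAP-1-NegB, 180, 184 and 197 with TRAP-1-NegP and 135, 164 and 161 with TRAP1, without overlap between these groups. With JQ1 it was 170, 157 and 169 CPM, which overlapped TRAP1. The lowest TRAP1 value came from replicate 1, which stood apart. The array from ZNF786 to ZNF767 on chromosome 7 (149069643 to 149624752) held 8 genes, and at 2 h 6 were lower and 1 higher with TRAP1, the higher one being the pseudogene ZNF767 (0.63).

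Members were also read by known role. Among factors that bind promoters, ZNF384 (−0.99, −0.46 and −0.87 at 4 h with TRAP1, TRAP-1-NegP and JQ1) and ZNF148 (−1.13, −0.79 and −0.79), which binds GC-rich boxes, fell with all 3 compounds, and so did ZNF410, the activator of CHD4 (−0.45, −0.33 and −0.69). CHD4 itself was not lower, with means at 4 h of 445 CPM with TRAP-1-NegB and 500, 516 and 535 with the 3 compounds in that order. A link between the levels of ZNF410 and CHD4 was not tested. At 2 h ZNF384 had already fallen (−0.78, −0.79 and −0.68), and ZNF148 with it (−0.77, −0.67 and −0.78, the TRAP-1-NegP call being lost after the correction for GC content and length). ZNF143, which binds promoters and the bases of chromatin loops, fell by 0.66, 0.87 and 0.66 at 4 h. Its call was lost with TRAP1 (without TRAP-1-NegB replicate 2 or TRAP1 replicate 1, −0.54 to −0.53) and with JQ1 (without TRAP-1-NegB replicate 2, −0.53) when single libraries were left out. Its paralog ZNF76 fell with JQ1 at 4 h (−0.57, no call after the correction for GC content and length) and had −0.40 and −0.14 with TRAP1 and TRAP-1-NegP, not called. ZNF263 rose with TRAP-1-NegP at 4 h (0.25, lost without TRAP-1-NegB replicate 3 or TRAP-1-NegP replicate 1, 0.20 to 0.21) and had −0.06 and 0.01 with the other compounds, not called. At 2 h it fell with TRAP1 (−0.30, lost without TRAP-1-NegB replicate 1, −0.27) and with JQ1 (−0.28, lost without JQ1 replicate 2 or 3 or TRAP-1-NegB replicate 1, −0.29 to −0.25) and had −0.16 with TRAP-1-NegP, not called. Both 2 h calls were also lost with length-scaled counts (−0.21 and −0.20).

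Among genes with RNA and ribosome roles, ZNF593 had 67.3, 70.2 and 69.4 CPM with TRAP-1-NegB at 4 h, 49.3, 53.1 and 58.9 with TRAP-1-NegP, 40.8, 37 and 40.2 with TRAP1 and 38.2, 35.2 and 42 with JQ1. All 9 libraries of the 3 compounds lay below TRAP-1-NegB, and the changes were −0.81 ± 0.10 (adjusted p = 8.62e-10) with TRAP1, −0.36 ± 0.10 (adjusted p = 0.00259) with TRAP-1-NegP and −0.84 ± 0.10 (adjusted p = 2.9e-10) with JQ1. ZNF622, another factor of the large ribosomal subunit, rose by 0.45, 0.30 and 0.31 at 4 h. ZNF638, which silences retroviral DNA that has not integrated, fell by 0.55, 0.94 and 0.73, and ZNF326, a link between transcript elongation and splicing, by 0.54, 0.60 and 0.30 (the last lost without JQ1 replicate 1 or 3 or TRAP-1-NegB replicate 1 or 3, −0.31 to −0.22). ZNF598, the ubiquitin ligase that marks collided ribosomes, fell with TRAP1 (−0.28, lost without TRAP-1-NegB replicate 2, −0.22) and had −0.14 and −0.12 with the others, not called. ZNF207 rose with TRAP-1-NegP (0.16, lost without TRAP-1-NegB replicate 1 or 2 or TRAP-1-NegP replicate 2 or 3, 0.12 to 0.16).

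Of the genes linked to p53, ZNF668 had 20.6, 18.6 and 22.6 CPM with TRAP-1-NegB and 2.77, 13.8 and 7.94 with TRAP1 at 4 h, so the TRAP1 libraries varied widely but lay below TRAP-1-NegB. It fell with all 3 compounds (−1.33, −0.70 and −1.20), with the TRAP1 call lost in a fit of the compared groups only (adjusted p = 0.122) and the TRAP-1-NegP call lost with single libraries left out (without TRAP-1-NegB replicate 3 or TRAP-1-NegP replicate 2, −0.67 to −0.63). ZNF346, which binds double-stranded RNA, fell by 1.59, 1.05 and 1.88. ZNF79 had 4.38, 6.16 and 5.03 CPM with TRAP-1-NegB and 8.79, 12.5 and 13.7 with TRAP1 at 4 h, without overlap (1.17 ± 0.21, adjusted p = 6.01e-06). ZNF337 fell with all 3 (−0.55, −1.26 and −1.20), the TRAP1 call being lost with single libraries left out (without TRAP-1-NegB replicate 1 or TRAP1 replicate 3, −0.51 to −0.45). At 2 h ZNF561 fell with TRAP-1-NegP (−0.55, lost without TRAP-1-NegB replicate 3 or TRAP-1-NegP replicate 2, −0.47 to −0.46) and JQ1 (−0.55, lost without JQ1 replicate 1 or 2 or TRAP-1-NegB replicate 2 or 3, −0.57 to −0.46).

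ZNF217, an oncogene amplified on chromosome 20 in breast cancer, had 0.01, 0.04 and 0.17 at 4 h and was not called with any of the 3. ZNF146 fell with TRAP1 and TRAP-1-NegP at 4 h (−0.51 and −0.45) and had −0.08 with JQ1, not called. Among recruiters of heterochromatin, ZNF274, known to bring SETDB1 to the 3′ ends of zinc finger genes, rose with JQ1 at 4 h (0.48, lost without JQ1 replicate 1 or 3 or TRAP-1-NegB replicate 1 or 2, 0.38 to 0.45). ZNF202 fell with TRAP-1-NegP (−0.95) and JQ1 (−0.51, lost without JQ1 replicate 3, −0.41), and had −0.37 with TRAP1, not called. ZNF711, ZNF420, ZNF365, ZNF750, ZNF165, ZNF10, ZNF91 and ZNF93 lay under 5 CPM in DMSO and were not described.

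The corepressors through which KRAB proteins act were read from a list of 22 genes. At 4 h 7 were higher and 6 lower with TRAP1, 6 and 7 with TRAP-1-NegP and 11 and 7 with JQ1, beside 22% and 24.2%, 17.8% and 18.7%, and 23.6% and 23.8% of all genes tested. SETDB1 changed most at 4 h, from 17.2, 19.4 and 22.4 CPM with TRAP-1-NegB to 5.83, 3.75 and 4.75 with TRAP-1-NegP, 3.21, 1.70 and 4.00 with TRAP1 and 4.02, 3.93 and 3.09 with JQ1. No library of the 3 compounds overlapped with TRAP-1-NegB, and the changes were −2.04 ± 0.19 (adjusted p = 5.79e-13), −2.74 ± 0.20 (adjusted p = 4.89e-17) and −2.42 ± 0.20 (adjusted p = 1.93e-15). At 2 h they were −0.75, −0.99 and −1.29, and with MS78 at 4 h the value was −0.01 ± 0.18 (adjusted p = 0.992). SUV39H1, a second methyltransferase of heterochromatin, fell by 1.17, 1.99 and 2.04 at 4 h with TRAP-1-NegP, TRAP1 and JQ1. At 2 h its changes, −1.02, −1.18 and −1.47 in the same order, were larger than those of SETDB1. TRIM28 rose with the same compounds (0.45, 0.49 and 0.45). Whether these levels bear on those of the ZNF genes was not tested.

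MS78 changed few of the ZNF genes. At 2 h 0 were higher and 2 lower than with TRAP-1-NegB, beside 1.52% and 1.65% of all genes tested, and these were ZNF770 (−0.43) and ZNF24 (−0.38). Both calls were lost without MS78 replicate 1, which stood apart (−0.18 and −0.20), and the count without it was 0. The count was also 0 without TRAP-1-NegB replicate 1 or 2, 1 without TRAP-1-NegB replicate 3, and 21 without MS78 replicate 3. At 4 h 4 were higher and 11 lower, beside 2.01% and 6.92%. Among them were ZNF818P (0.89), ZNF302 (0.64) and ZNF639 (0.60), higher, and ZNF688 (−0.82), ZNF213 (−0.56) and ZNF408 (−0.53), lower. Single libraries ended the calls of ZNF818P (without MS78 replicate 1, 0.68), ZNF302 (without MS78 replicate 1 or 2 or TRAP-1-NegB replicate 1, 2 or 3, 0.51 to 0.71), ZNF639 (without MS78 replicate 3 or TRAP-1-NegB replicate 3, 0.55 to 0.56), ZNF688 (without MS78 replicate 1 or 2, −0.80 to −0.76) and ZNF213 (without MS78 replicate 1, −0.46). The 15 calls became 4 without MS78 replicate 1, 8 without TRAP-1-NegB replicate 2 and 7 without TRAP-1-NegB replicate 3. Without the pair of libraries that stood apart they were 24, and after the correction for GC content and length, which also ended the call of ZNF408 (−0.34), they were 6.

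TRAP-1-NegB against DMSO at 4 h gave 1 gene higher and 0 lower, beside 0.827% and 0.2% of all genes tested. At 2 h 11 were higher and 7 lower, beside 5.08% and 5.87%, a description since DMSO chose the genes. DMSO at 4 h against 2 h gave 17 higher and 16 lower, beside 11.4% and 9.45%, again a description since these DMSO libraries chose the genes. Without single libraries these 33 calls ran from 18 to 34, the low counts coming without DMSO replicate 1 or 2 of 2 h or replicate 2 or 3 of 4 h. Those of TRAP-1-NegB against DMSO at 2 h ran from 7 to 16, the low counts coming without DMSO replicate 3 or TRAP-1-NegB replicate 1. ZNF579 (1.00), ZNF414 (0.76) and ZNF385A (0.74) rose with time in DMSO, and ZNF791 (−0.94), ZNF518B (−0.89) and ZNF41 (−0.85) fell. The calls of ZNF414 (without DMSO 2 h replicate 1 or 3 or DMSO 4 h replicate 1 or 2, 0.65 to 0.74), ZNF518B (without DMSO 4 h replicate 3, −0.66) and ZNF41 (without DMSO 2 h replicate 1 or DMSO 4 h replicate 1, −0.78 to −0.74) were lost.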

How the data were processed

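RNA of 36 libraries (3 per group) was selected by polyA and sequenced with paired 150-base reads. Per the submitters' processing notes and design text, the authors quantified it against hg38 with Salmon 1.10.3 in nf-core/rnaseq 3.18.0; which annotation they used is not stated in these sources. A deposited table gives the authors' estimated counts per gene without normalization for depth, and a deposited table of TPM was used for levels per transcript length. The members and lists were chosen with earlier results of these data known, and the pairs of promoters shown after values were seen.

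Estimated counts were rounded and fitted with edgeR 4.0.16 in R 4.3.3 (limma 3.58.1 loaded): filterByExpr with a minimum count of 10 left 14988 genes, TMM scaled the libraries, and glmQLFit (robust) and glmQLFTest used 1 mean per group over all 36 libraries. Tests are two-sided, with Benjamini-Hochberg adjustment within each of 28 comparisons and calls at an adjusted p under 0.05; the common biological coefficient of variation was 0.135. The SE holds counting error and replicate spread together. Printed CPM are TMM-scaled, while the threshold of 5 CPM used unscaled counts. Named genes had an adjusted p under 0.05 and groups without overlap, and were the largest changes by log2 fold: 8 each way at 4 h and 5 at 2 h against TRAP-1-NegB, up to 5 for TRAP1 against TRAP-1-NegP or JQ1, and up to 3 elsewhere, besides a panel by role, the 5 highest levels and the genes next to the threshold. Genes named for the interaction of compound and time needed the adjusted p but not groups without overlap. The genes of arrays and the example pair members outside these rules were named after their values were seen.

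GC content, positions and length came from GENCODE v29, a release chosen here, and domains from sequence patterns (pyhmmer 0.12.3, Python 3.11.15). Alternatives were DESeq2 size factors, the DESeq2 1.42.0 Wald test, length-scaled counts, no filter or a stricter one, the replicate number as a block, fits of the compared groups alone, a loess correction for GC content and length, members chosen on 24 other libraries, and fits without the pair of libraries that stood apart or without any single library. Same-numbered libraries deviated together with correlations of −0.0645 to 0.0644, so the numbers do not pair them. The fit was also run on simulated independent counts with few changed genes. Far more genes were called in the data at 4 h, so that run does not bear on the counts given here. The labels give no batch. Figures were drawn with matplotlib 3.10.9.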

Additional observations from a re-analysis of the deposited data

Results flagged for a closer look

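The results below were marked because a compound's effect against TRAP-1-NegB differed between 2 and 4 h, tested as an interaction in edgeR over all genes. The interaction passed for 30 of the 244 genes with TRAP1, 34 with TRAP-1-NegP and 80 with JQ1. Of all genes tested, 6.97% moved upwards and 9.4% downwards with TRAP1. With TRAP-1-NegP it was 6.41% and 8.03%, and with JQ1 11.5% and 12.7%. The totals for TRAP1 and TRAP-1-NegP were thus not above the background. For TRAP1 the effect moved upwards from 2 to 4 h for ZNF134 (1.09 on the log2 scale), ZNF281 (0.97) and ZNF354A (0.87) and downwards for ZNF618 (−1.84), ZNF37A (−1.67) and ZNF32 (−1.41). For TRAP-1-NegP it moved upwards for ZNF714 (1.58), ZNF680 (1.44) and ZNF776 (1.26) and downwards for ZNF618 (−2.25), ZNF32 (−2.02) and ZNF407 (−1.25). For JQ1 it moved upwards for ZNF551 (1.69), ZNF800 (1.56) and ZNF281 (1.5) and downwards for ZNF618 (−2.19), ZNF747 (−1.67) and ZNF32 (−1.5). The 3 interactions share the TRAP-1-NegB libraries, so the recurrence of ZNF618 and ZNF32 is not independent. The call of ZNF134 with TRAP1 was lost without TRAP1 replicate 3 at 2 h (1.0) or replicate 1 at 4 h (0.88), and that of ZNF776 with TRAP-1-NegP without TRAP-1-NegP replicate 2 at 4 h (0.94). The call of ZNF354A was lost without TRAP-1-NegB replicate 1 at 2 h, TRAP-1-NegB replicate 1 or 2 at 4 h, or TRAP1 replicate 2 or 3 at 2 h (0.74 to 0.88).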

How the results depend on the processing

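Of 4732 values of named genes under the alternatives, 4510 kept direction and side of the threshold, 188 lost their call (140 without a single library, 48 otherwise), 34 gained one and 0 reversed; DESeq2 gave no adjusted p for 2. Counting depth limits genes near 5 CPM, paralogs such as ZNF587 and ZNF587B or ZNF780A and ZNF780B can share reads, and 3 libraries a group limit every call. Counts below are ZNF genes called in both directions together. The replicate block gave 100, 91 and 110 calls for TRAP1, TRAP-1-NegP and JQ1 against TRAP-1-NegB at 2 h and 130, 110 and 151 at 4 h, and it moved no count of the 28 comparisons by over 1.5 times; the pairing of replicate numbers found no support in the data. Members chosen on 24 other libraries numbered 239, of which 230 were shared. The cause of the following changes was not tested, except that a fit of the compared groups only uses fewer libraries.

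MS78 against TRAP-1-NegB at 2 h gave 1 call after the correction for GC content and length (2 as reported), 0 without both libraries that stood apart, 6 with DESeq2's test and 0 in a fit of the compared groups. TRAP1 against TRAP-1-NegP at 2 h (3) gave 6 without a filter, 11 without both libraries, 6 with DESeq2 and 18 in the groups alone, and split 2 higher and 2 lower with length-scaled counts and 3 and 0 after the GC correction. TRAP1 against JQ1 at 2 h (5) gave 8 without a filter, 10 after the GC correction, 12 without both libraries, 8 with DESeq2 and 16 in the groups alone. JQ1 against TRAP-1-NegP (35 and 86) gave 22 at 2 h and 46 at 4 h after the GC correction. At 4 h TRAP1 against TRAP-1-NegP (41) gave 22 in the groups alone, and TRAP1 against JQ1 (80) gave 52 after the GC correction and 53 in the groups alone. MS78 against TRAP-1-NegB at 4 h (15) gave 6 after the GC correction, 24 without both libraries and 24 in the groups alone. TRAP-1-NegB against DMSO gave 38 at 2 h in the groups alone (18 as reported); at 4 h (1) it gave 2 without a filter, 4 after the GC correction (2 higher and 2 lower), 4 without both libraries and 3 in the groups alone. MS78 against DMSO gave 3 at 2 h in the groups alone (27, split 14 and 13, or 21 and 12 after the GC correction); at 4 h (21) it gave 7 after the GC correction and 32 without both libraries or in the groups alone. DMSO at 4 h against 2 h (33) gave 15 after the GC correction and 53 in the groups alone. The interaction of TRAP1 (30) gave 50 after the GC correction and that of TRAP-1-NegP (34) gave 52 without both libraries.

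Without single libraries, calls against TRAP-1-NegB at 2 h ran from 84 to 92 for TRAP1, 66 to 89 for TRAP-1-NegP, 95 to 101 for JQ1 and 0 to 21 for MS78, and at 4 h from 120 to 130, 95 to 101, 135 to 145 and 4 to 11. At 2 h TRAP1 against TRAP-1-NegP ran from 1 to 3, TRAP1 against JQ1 from 2 to 5, JQ1 against TRAP-1-NegP from 21 to 29, TRAP-1-NegB against DMSO from 7 to 16 and MS78 against DMSO from 15 to 29 (low without MS78 replicate 1 or DMSO replicate 2 or 3). At 4 h they ran from 28 to 44, 58 to 70, 58 to 79, 1 to 2 (2 without DMSO replicate 1) and 9 to 23 (low without any MS78 library or DMSO replicate 2 or 3). DMSO over time ran from 18 to 34, and the interactions of TRAP1, TRAP-1-NegP and JQ1 from 25 to 33, 21 to 34 and 64 to 79.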

Other observations

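Of the 217 ZNF genes below the threshold of 5 CPM that could be tested, 16 were lower and 5 higher with TRAP1 at 2 h, and 29 and 19 at 4 h. JQ1 gave 24 and 6, then 19 and 29. With TRAP1 the shares lower were 7.37% and 13.4%, below the 9.13% and 24.2% of all genes tested, and the shares higher 2.3% and 8.76%, beside 11.6% and 22%. With JQ1 the shares lower were 11.1% and 8.76%, beside 10.3% and 23.8%, and the shares higher 2.76% and 13.4%, beside 12% and 23.6%. These genes rest on fewer counts, so their calls are harder to reach. Of 38 genes of the ZBTB, ZSCAN and ZKSCAN families, whose proteins join zinc fingers to a BTB or SCAN domain, 19 were lower and 2 higher with TRAP1 at 2 h and 22 and 6 at 4 h (medians −0.38 and −0.56). With JQ1 they gave 22 lower and 3 higher, then 14 and 8. The 16 members with a SCAN match gave 5 lower and 0 higher with TRAP1 at 2 h and 5 and 1 at 4 h.

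Within the members, promoters with and without the CCGGAAG core were set side by side after values were seen. Of 67 with it, 26 were lower and 0 higher with TRAP1 at 2 h, and of 143 without it 57 and 5. With JQ1 at 4 h the 67 gave 15 higher and 23 lower and the 143 gave 35 and 53. Of 130 promoters with GGGCGG, 36 genes were higher and 44 lower with JQ1 at 4 h, and of 80 without it 14 and 32. Of all genes tested, 9.13% were lower and 11.6% higher with TRAP1 at 2 h, and 23.6% were higher and 23.8% lower with JQ1 at 4 h. The differences between these splits were not tested.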
